A study of Drosophila melanogaster with 24 samples.

Results

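The genes of the Dpp/BMP pathway were followed across 6 genotypes of *Drosophila* mesodermal cells. They were the 10 genes of the count table whose symbol is *dpp*, *gbb*, *tkv*, *sax*, *put*, *Mad*, *Med*, *Dad*, *shn* or *brk*, out of 17476 genes in all. RNA had been sequenced from cells sorted for GFP at embryonic stages 11 to early 12, from embryos kept at 25 °C. Every genotype carried *twi-GAL4* and *UAS-2EGFP*, so that Gal4 made under the *twist* promoter lit up mesodermal cells. Wild-type cells were *twi-GAL4 UAS-2EGFP/+* and had no further change. The *jumu* loss-of-function cells had 2 copies of the deficiency *Df(3R)Exel6157*, which deletes *jumu*, one on the *twi-GAL4* chromosome and the other on the *UAS-2EGFP* chromosome. The *CHES-1-like* loss-of-function cells carried the X-chromosome deficiency *Df(1)CHES-1-like1*. The double loss-of-function cells carried it together with 2 copies of *Df(3R)Exel6157*. The sample titles do not give the copy number of *Df(1)CHES-1-like1*. The overexpressing cells carried *UAS-jumu* or *UAS-CHES-1-like*, driven by the same *twi-GAL4*, and the descriptions of these 2 genotypes name late stage 11 where the other 4 name stage 11. A deficiency removes a stretch of chromosome and not one gene alone, and a driven transgene acts in every cell in which *twi-GAL4* is on. Each genotype had 4 replicates, 24 samples in all. They were called biological replicates in the methods for wild-type and *jumu* loss-of-function only, and for the other 16 samples the p-values may measure technical spread.

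Dpp and Gbb are secreted ligands of the BMP family. They bind complexes of type I receptors (Tkv, Sax) and the type II receptor Put, which phosphorylate the Smad protein Mad. Mad then enters the nucleus with the co-Smad Med. The inhibitory Smad Dad dampens the signal and is itself switched on by it, while the zinc-finger protein Shn works with Mad and Med to shut off *brk*, which encodes a repressor of Dpp target genes. In the embryo, Dpp from the dorsal ectoderm keeps *tinman* on in the underlying dorsal mesoderm, from which the heart and the visceral muscles arise.

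The targeted genes were checked first. Levels are given as CPM, counts scaled to a common library size with TMM factors of all 24 samples. *jumu* stood at 118 to 126 CPM in wild-type, at 27.1 to 31.4 CPM in its loss-of-function cells and at 648 to 715 CPM when overexpressed. In the double loss-of-function it stood at 19.2 to 23.6 CPM. Cells homozygous for the *jumu* deficiency thus kept 24.4% of the wild-type mean of *jumu* alone and 17.9% in the double loss-of-function, where *CHES-1-like* kept 0.734% in its own loss-of-function cells. The paper states that this deficiency deletes *jumu* completely, and the source of the remaining counts was not tested. *CHES-1-like* stood at 154 to 161 CPM in wild-type, at 0.68 to 1.72 CPM in its loss-of-function cells, at 0.56 to 2.78 CPM in the double loss-of-function and at 1375 to 1748 CPM when overexpressed. Total counts ran from 15197022 to 72519855 per sample. The mesodermal markers *twi* and *Mef2* were present throughout, at 18.2 to 30.3 CPM and 405 to 699.8 CPM. Markers of other cells were present too. Of 6 hemocyte markers *Pxn* (158 to 513 CPM), *srp* and *gcm* were abundant and *He* stayed at or under 0.308 CPM, and of 6 amnioserosa markers *Ance* (46.2 to 136 CPM) and *peb* (31.5 to 82.7 CPM) were abundant and *zen* stayed at or under 0.202 CPM. Some of these, such as *srp*, *Ance* and *peb*, are not restricted to 1 cell type. Replicate 2 of the double loss-of-function stood apart, with a median correlation of 0.973 with its own group against 0.990 to 0.991 for the other 3, and its 9 neural markers summed to 599.7 CPM against 318 to 325 CPM. Replicate 1 of *CHES-1-like* overexpression also stood apart, at 0.980 against 0.990 to 0.991, and its neural markers summed to 526 CPM against 316 to 347 CPM. Replicate 1 of *jumu* overexpression had neural markers at 507 CPM against 327 to 389 CPM. Results that rest on these libraries are given with and without them. Replicate 1 also had the highest neural sum of its group in wild-type (409 CPM), *jumu* loss-of-function (440 CPM) and *CHES-1-like* loss-of-function (348 CPM). Its summed mesodermal markers were highest there too (1456, 1500 and 1434 CPM). In sorted bulk cells, fewer cells of a type and less RNA per cell cannot be told apart.

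All 10 genes were detected in every sample, from 131 counts for *dpp* up to 12664 counts for *put*, and all 10 passed the filter that left out the least expressed genes. Levels of different genes were compared per kilobase of annotated exon. In wild-type, *gbb* led with 70.3 ± 3.49 CPM per kilobase (SD, n = 4), and *dpp* was lowest with 2.85 ± 0.158 CPM per kilobase. *sax* followed *gbb* at 28.8 ± 0.77 CPM per kilobase and *put* came next at 25.1 ± 0.261 CPM per kilobase. *tkv* (20.8 ± 1.24) and *Mad* (20.5 ± 1.07) overlapped in their replicates and could not be ordered. The nuclear and inhibitory genes came lower, with *brk* at 16.7 ± 0.558, *Med* at 11.6 ± 0.891, *shn* at 8.26 ± 0.303 and *Dad* at 6.79 ± 0.238 CPM per kilobase. All other neighbours in this order had replicates that did not overlap. The ligand Gbb was thus the most abundant message of the set in these cells and the ligand Dpp the least abundant.

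**Figure D1:**
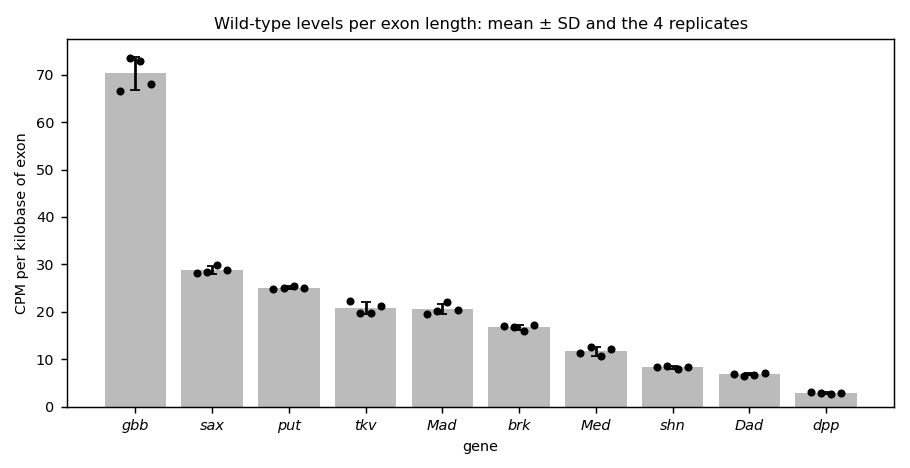
Wild-type levels of the 10 genes in CPM per kilobase of exon. Bars give the mean, error bars the SD and points the 4 replicates, from 70.3 for *gbb* down to 2.85 for *dpp*.

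In the Ensembl BDGP6.54 annotation of the *Drosophila* genome, *dpp* lies on arm 2L from 2428372 to 2459823, *gbb* on 2R from 23851562 to 23853247, *tkv* on 2L from 5219000 to 5271384 and *sax* on 2R from 7806484 to 7810067. *put* lies on 3R from 14619030 to 14625703, *Mad* on 2L from 3146056 to 3159643, *Dad* on 3R from 17054007 to 17070408, *shn* on 2R from 11159086 to 11217394 and *brk* on X from 7307939 to 7311132. *Med* was matched by its symbol, since the annotation gives it another identifier, and lies on 3R from 31611046 to 31615375. On the arms of the deleted genes, *put* starts or ends 4.26 Mb and *Dad* 6.69 Mb from *jumu*, and *brk* lies 0.371 Mb from *CHES-1-like*. Exons of *tkv* overlap those of *TpnC25D* and *CR14033* on the opposite strand, and exons of *Med* overlap those of *CycG* and *Mnat9*. Whether strand was used in counting is not given in the sources used here, so the counts of *tkv* and *Med* are uncertain to that degree.

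Each genotype was compared with wild-type by edgeR's quasi-likelihood test, with false discovery rates (FDR) over all genes. A gene passed when its FDR was below 0.1 and its log2FoldChange was above 0.5 or below −0.5. These comparisons share the 4 wild-type samples. The pathway genes passed in 2 genotypes only. In the double loss-of-function, *put* and *dpp* rose and *tkv* fell, 3 of 10 genes, where 24.7% of all 12234 genes tested passed. In *CHES-1-like* overexpression *gbb* and *Mad* fell, 2 of 10 genes, where 33.1% of all genes tested passed. In *jumu* loss-of-function 0 of 10 passed (19.4% of all genes), in *CHES-1-like* loss-of-function 0 of 10 (15.4%) and in *jumu* overexpression 0 of 10 (15.7%). The 3 of 10 and 2 of 10 lie near the background shares, and the 3 counts of 0 lie below theirs. For these 3 genotypes DESeq2 also passed 0 of 10. At an unadjusted p below 0.05 and any size edgeR's test gave 5, 4 and 2 of 10, against 47.3%, 41.9% and 37.4% of all genes. With library totals in place of TMM factors 7 genes passed in *CHES-1-like* loss-of-function, all lower, where 51.2% of all genes passed lower and their median was −0.56. Genes whose 4 samples did not overlap wild-type numbered 2 of 10 in *jumu* loss-of-function (*sax* and *put*, 36.5% of all genes), 2 in *CHES-1-like* loss-of-function (*tkv* and *put*, 30.2%), 4 in the double loss-of-function (*dpp*, *sax*, *tkv* and *put*, 37.2%) and 2 in *jumu* overexpression (*brk* and *sax*, 28.6%).

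**Figure D2:**
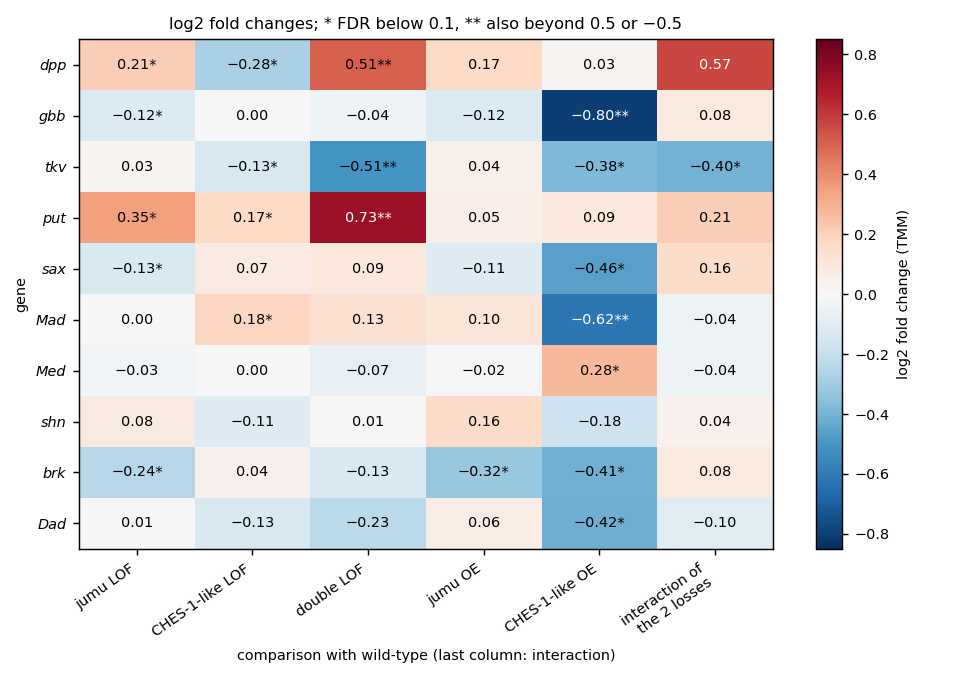
log2FoldChange (TMM scaling) of the 10 genes, in 5 comparisons with wild-type and in the interaction of the 2 losses; 1 asterisk marks an FDR below 0.1 and 2 asterisks a change that also passes 0.5 in size. The 5 changes that pass are *dpp*, *put* and *tkv* in the double loss-of-function and *gbb* and *Mad* in *CHES-1-like* overexpression; scaled by library totals, 17 of the 60 values change sign, among them *tkv* in the interaction.

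**Figure D3:**
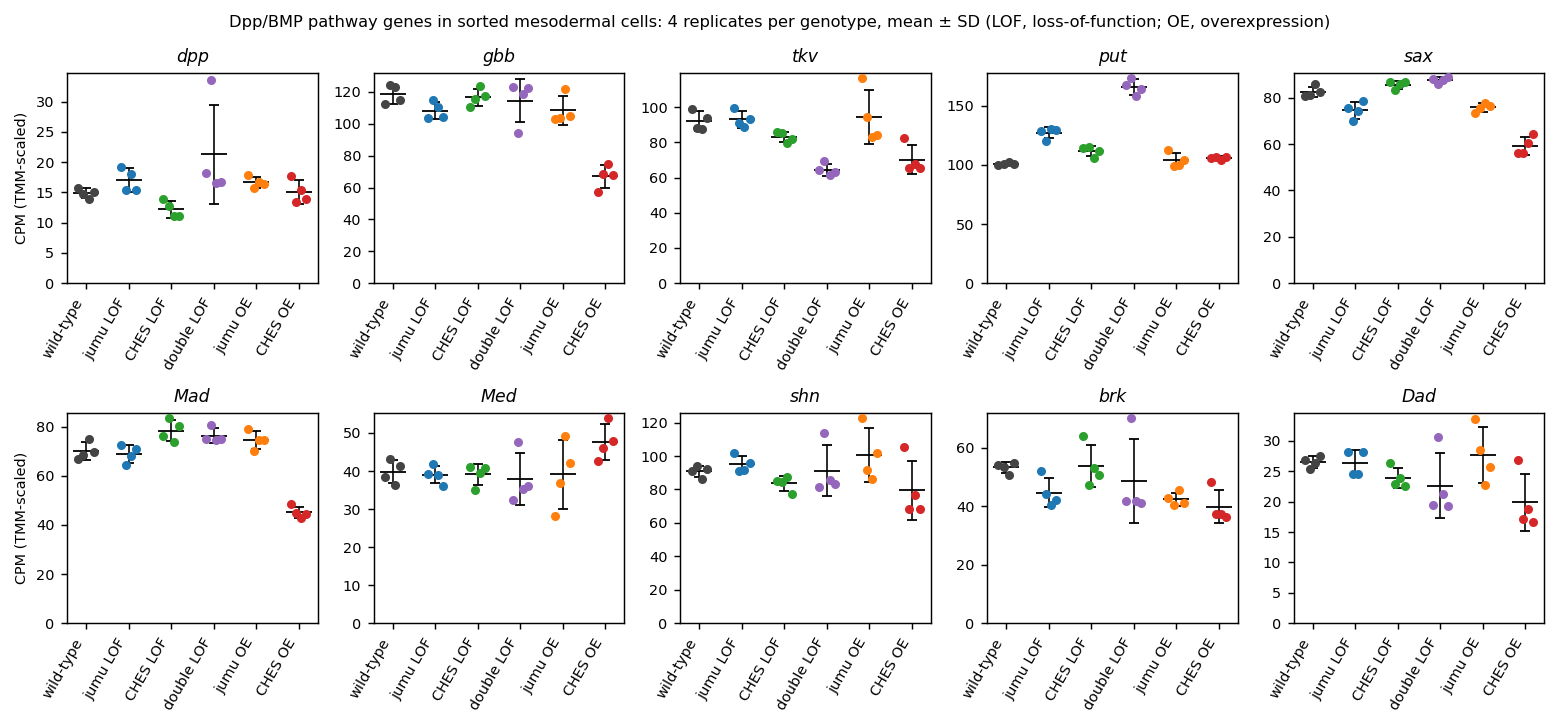
CPM of each gene in the 24 samples, 4 points per genotype with the mean and SD. Axes start at 0 and differ between genes; *put* is highest in the 4 double loss-of-function samples and *gbb* and *Mad* are lowest in the 4 *CHES-1-like* overexpression samples.

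The type II receptor gene *put* was the one member whose 4 samples lay above wild-type in all 3 loss-of-function genotypes. Wild-type replicates held 99.5, 100.7, 102 and 100.4 CPM. The double loss-of-function replicates held 167, 173, 158 and 164 CPM, all above every wild-type sample. The rise was 0.73 ± 0.068 on the log2 scale (SE, n = 4 and 4; FDR 1.64e-05), a mean of 166 ± 6.55 CPM against 101 ± 1.05 CPM (SD). It did not rest on the library that stood apart, since without replicate 2 the log2FoldChange was 0.70. In *jumu* loss-of-function the 4 samples held 128, 120.0, 130.1 and 129.6 CPM, again all above wild-type. The log2FoldChange there was 0.35 ± 0.045, with an FDR of 2.28e-06 but a size under 0.5. With *CHES-1-like* deleted, *put* stood at 114, 115, 106 and 112 CPM, with a log2FoldChange of 0.17 ± 0.050 (FDR 0.0159), which turned to −0.39 with library totals, 0.17 above the median of all genes in that scaling. In *CHES-1-like* overexpression the samples of *put* (104 to 107 CPM) were above wild-type by 0.09 ± 0.058, which did not pass (FDR 0.275), and in *jumu* overexpression they overlapped wild-type at 99.0 to 112 CPM.

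Whether the 2 losses added up was tested by their interaction, the double loss-of-function minus both single losses plus wild-type, over 16 samples. For *put* the interaction was 0.21 ± 0.081 on the log2 scale (FDR 0.122) and did not pass, so a departure from the sum of the single changes was not shown. DESeq2 gave it an FDR of 0.0214 and the fit without double loss-of-function replicate 2 an FDR of 0.0479, both at sizes under 0.5. No member passed both thresholds in the interaction, 0 of 10 where 12.2% of all genes tested passed. At an unadjusted p below 0.05, edgeR's test gave 3 of 10 members of any size (27.5% of all genes). DESeq2 gave 4 (28.3%), with 0 members passing in either. With library totals all 10 passed, all higher, where 78.3% of all genes passed higher and their median was 1.08.

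The type I receptor gene *tkv* moved the other way from *put* in the double loss-of-function. Wild-type samples held 99.1, 87.9, 87.6 and 93.9 CPM, and double loss-of-function samples 64.3, 69.2, 61.3 and 63.3 CPM, with no overlap. The log2FoldChange was −0.51 ± 0.077 (FDR 5.96e-04), close to the limit of 0.5. Leaving out wild-type replicate 1 or 4 or double loss-of-function replicate 3 brought it to −0.47, −0.50 and −0.49, just inside that limit, and without replicate 2 of the double loss-of-function it was −0.56. With library totals it was −0.19 and did not pass, where the median of all genes was 0.34. Neither single loss showed a change of this size. In *jumu* loss-of-function *tkv* ran from 88.6 to 99.7 CPM and overlapped wild-type (log2FoldChange 0.03 ± 0.052, FDR 0.811). In *CHES-1-like* loss-of-function it ran from 79.9 to 85.9 CPM, below every wild-type sample, with a log2FoldChange of −0.13 ± 0.055 (FDR 0.0942). The interaction for *tkv* was −0.40 ± 0.090 (FDR 0.00543) and −0.44 without double loss-of-function replicate 2, the one member with an interaction FDR below 0.1, where 17.7% of all genes had one. It became 0.64 with library totals, where *tkv* lay below the median of all genes. The size was under the limit of 0.5. In *jumu* overexpression *tkv* ran from 82.9 to 116 CPM and overlapped wild-type.

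Markers of other cells also moved in all 4 double loss-of-function samples. The summed hemocyte markers were at 508 to 537 CPM against 773 to 823 CPM in wild-type, with *Pxn* lower, *Hml* higher and *He* at or near 0. The summed amnioserosa markers were at 261 to 270.3 CPM against 194 to 204 CPM, with 2 of 5 tested passing higher and *zen* at or near 0. The summed ectoderm and trachea markers overlapped wild-type (216 to 232 CPM against 215 to 224 CPM), with 4 of 7 passing lower and 2 higher. The summed visceral mesoderm markers were at 254 to 395 CPM against 215 to 223 CPM, with 3 of 5 passing higher. The summed myofibril genes were at 1683 to 1789 CPM against 2460.5 to 2577 CPM, though 3 of 11 passed higher and 1 lower. Sums also lay outside wild-type in other genotypes. In *jumu* loss-of-function they were 250 to 262 CPM for amnioserosa, 255 to 259 for ectoderm and trachea and 720 to 757 for hemocytes. *CHES-1-like* loss-of-function had 183 to 193, 187 to 202 and 938 to 972 CPM, and *jumu* overexpression 230 to 251, 164 to 180 and 603 to 686 CPM. The summed mesodermal markers were at 1307 to 1500, 1251 to 1434 and 1173 to 1565 CPM in these genotypes, against 1370.4 to 1456 CPM in wild-type. In each, replicate 1 was highest and replicates 2 to 4 lay below every wild-type sample. In the double loss-of-function replicate 2 lay above wild-type and the other replicates below it (1161 to 1735 CPM). The part of these shifts in the values of the pathway genes was not tested.

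The other type I receptor gene, *sax*, stayed close to wild-type in the loss-of-function genotypes. Wild-type samples held 80.9, 81.2, 85.7 and 82.5 CPM. *jumu* loss-of-function samples held 69.9 to 78.4 CPM, all below wild-type, with a log2FoldChange of −0.13 ± 0.047 (FDR 0.0416). Double loss-of-function samples held 85.9 to 88.9 CPM, just above wild-type (log2FoldChange 0.09 ± 0.066, FDR 0.369). In *jumu* overexpression the samples held 73.4 to 77.8 CPM, below wild-type but not passing (log2FoldChange −0.11, FDR 0.224).

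Of the ligand genes, *dpp* was at 15.8, 14.7, 13.9 and 15.1 CPM in wild-type and at 18.2, 33.6, 16.6 and 16.8 CPM in the double loss-of-function. All 4 double loss-of-function samples lay above wild-type, but replicate 2 was far above the other 3. The log2FoldChange was 0.51 ± 0.20 (FDR 0.0942), and without replicate 2 it was 0.19 (FDR 0.0179), which no longer passed in size. The change failed to pass in 6 of the 8 fits that left out 1 sample. In *jumu* loss-of-function the samples held 15.3 to 19.3 CPM (log2FoldChange 0.21 ± 0.075, FDR 0.0410) and with *CHES-1-like* deleted they held 11.0 to 13.9 CPM (log2FoldChange −0.28 ± 0.084, FDR 0.0191), so that the single losses differed in sign for *dpp* while both overlapped wild-type. The interaction for *dpp* was 0.57 ± 0.24 (FDR 0.167), and 0.27 without replicate 2. *dpp* in *jumu* overexpression (15.7 to 17.8 CPM) and in *CHES-1-like* overexpression (13.4 to 17.7 CPM) overlapped wild-type. The other ligand gene, *gbb*, was within 0.12 of wild-type on the log2 scale in all 3 loss-of-function genotypes and in *jumu* overexpression. Only in *jumu* loss-of-function was its FDR below 0.1 (log2FoldChange −0.12 ± 0.051, FDR 0.0982).

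**Figure D4:**
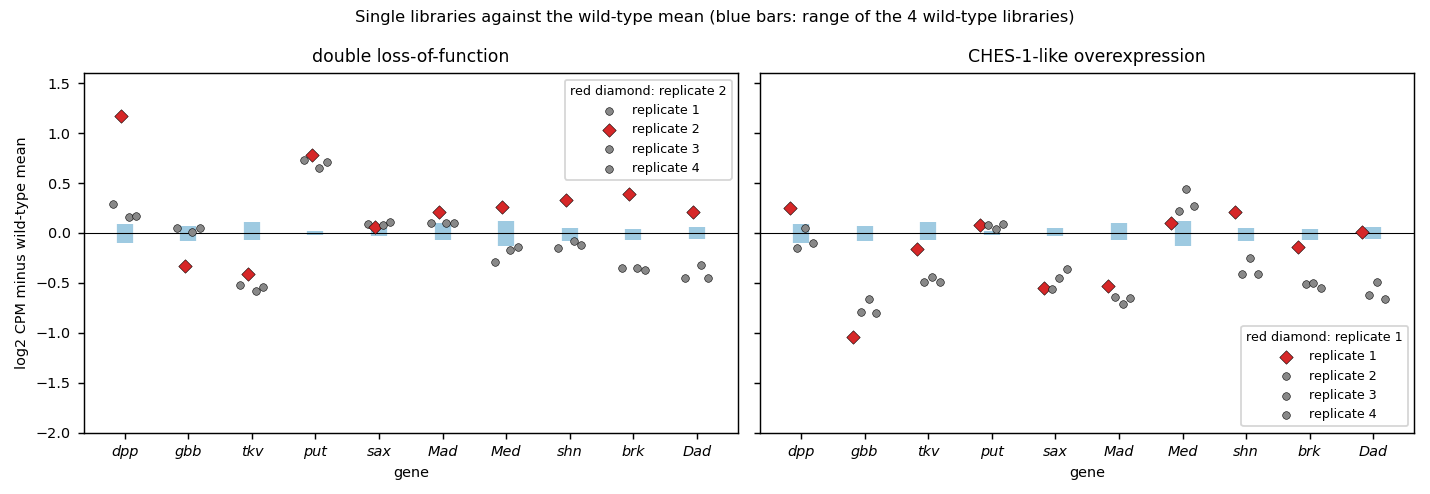
log2 CPM of each library minus the wild-type mean, for the double loss-of-function (left) and *CHES-1-like* overexpression (right); points are single replicates and blue bars the wild-type range. Red diamonds mark replicate 2 of the double loss-of-function, which lies opposite to the other 3 for *brk*, *Dad*, *shn*, *Med* and *gbb*, and replicate 1 of *CHES-1-like* overexpression.

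The genes of the nuclear output in the double loss-of-function depended on that library. *brk*, the repressor gene, was at 54.1, 53.5, 50.7 and 54.8 CPM in wild-type, and at 41.6, 70.1, 41.8 and 41.2 CPM in the double loss-of-function. Thus 3 samples lay below wild-type and replicate 2 above it. The log2FoldChange over 4 samples was −0.13 ± 0.16 (FDR 0.622), and without replicate 2 it was −0.36 (FDR 8.37e-08). *Dad*, the inhibitory Smad gene, was at 26.8, 25.3, 26.4 and 27.6 CPM in wild-type and at 19.4, 30.6, 21.2 and 19.3 CPM in the double loss-of-function. Its log2FoldChange was −0.23 ± 0.14 (FDR 0.274), and without replicate 2 it was −0.41 (FDR 6.34e-07). *shn* and *Med* behaved alike in this respect, at 0.01 and −0.07 with replicate 2 and at −0.12 and −0.21 without it. In size neither *brk* nor *Dad* passed 0.5 in either fit, and the 3 that passed with all samples became 2, *put* and *tkv*, where 26.4% of all genes passed without it. Members with an FDR below 0.1 at any size numbered 3 with all samples (37.9% of all genes) and 9 without replicate 2 (56.6%). Beside its neural markers, replicate 2 also had more mesodermal marker counts (1735 CPM summed over 8 genes, against 1161 to 1203 CPM). It had more visceral mesoderm marker counts too (395 CPM over 5 genes, against 254 to 266 CPM). Wild-type sums were 1370.4 to 1456 CPM and 215 to 223 CPM. The other 3 samples thus lay below wild-type in mesodermal markers and above it in visceral mesoderm markers. Their neural sums (318 to 325 CPM) lay below wild-type (373 to 409 CPM). The part of these marker differences in the values of the pathway genes was not tested.

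*brk* also stood out in *jumu* overexpression. The 4 samples held 42.7, 40.5, 45.5 and 41.1 CPM, all below wild-type. The log2FoldChange was −0.32 ± 0.063 (FDR 0.00196), the one member with an FDR below 0.1 in that comparison, where 30.1% of all genes had one, and it was −0.33 without replicate 1. In *jumu* loss-of-function *brk* was at 51.9, 44.1, 40.5 and 42.2 CPM, with a log2FoldChange of −0.24 ± 0.063 (FDR 0.00462) and 1 sample within wild-type. The level of *brk* was therefore lower both in *jumu* loss-of-function and in *jumu* overexpression, in each case by less than 0.5 on the log2 scale. In *CHES-1-like* loss-of-function *brk* ran from 47.3 to 64.2 CPM around wild-type (log2FoldChange 0.04 ± 0.068, and −0.51 with library totals against a median of −0.56).

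In the single losses the remaining genes moved little. *Mad* in *CHES-1-like* loss-of-function held 76.1, 83.4, 73.6 and 80.5 CPM against 66.6, 68.5, 75.2 and 69.8 CPM in wild-type. Its log2FoldChange was 0.18 ± 0.057 (FDR 0.0210), and −0.38 with library totals, which is 0.18 above the median of all genes. *Med*, *shn* and *Dad* had an FDR above 0.1 in both single losses and in *jumu* overexpression, with log2FoldChanges between −0.13 and 0.16. Over the 10 genes, the median log2FoldChange was 0.0016 in *jumu* loss-of-function, −0.0030 in *CHES-1-like* loss-of-function, −0.015 in the double loss-of-function and 0.048 in *jumu* overexpression, against −0.0020, −0.014, 0.016 and 0.0086 over all genes tested. Members with an FDR below 0.1 of any size numbered 5 in *jumu* loss-of-function (43.8% of all genes) and 4 in *CHES-1-like* loss-of-function (36.3%).

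In *CHES-1-like* overexpression most of the pathway genes were lower. The ligand gene *gbb* fell in all 4 samples, from 112, 124, 123 and 115 CPM in wild-type to 57.3, 68.4, 74.7 and 67.7 CPM. Its log2FoldChange was −0.80 ± 0.078 (FDR 1.82e-06), and −0.76 without replicate 1. The Smad gene *Mad* fell from 66.6 to 75.2 CPM in wild-type to 48.4, 44.7, 42.7 and 44.5 CPM, with a log2FoldChange of −0.62 ± 0.068 (FDR 5.99e-06). For both genes the groups were far apart, and neither the other scalings nor DESeq2 brought them under the limit of 0.5.

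Both type I receptor genes were lower as well, though by less than the limit. *sax* held 56.3, 56.0, 60.4 and 64.2 CPM, all below wild-type, with a log2FoldChange of −0.46 ± 0.064 (FDR 5.72e-05), and −0.50 without replicate 4, which passed, as did −0.52 with library totals. *tkv* held 82.3, 65.3, 67.7 and 65.5 CPM, also all below wild-type, with a log2FoldChange of −0.38 ± 0.085 (FDR 0.00292), and −0.49 without replicate 1. Of the output genes, *brk* held 48.2, 37.4, 37.5 and 36.2 CPM (log2FoldChange −0.41 ± 0.089, FDR 0.00224) and *Dad* 26.8, 17.2, 18.8 and 16.7 CPM (log2FoldChange −0.42 ± 0.12, FDR 0.0170). In both, replicate 1 was nearest to wild-type. Without replicate 1 the log2FoldChange was −0.53 for *brk* and −0.60 for *Dad*, and 4 members passed (*gbb*, *Mad*, *brk* and *Dad*) where 34.6% of all genes did. *shn* held 105, 68.1, 76.5 and 68.4 CPM and did not pass (log2FoldChange −0.18 ± 0.12, FDR 0.312, and −0.36 without replicate 1).

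The co-Smad gene *Med* was the exception in direction, at 42.7, 46.1, 53.9 and 47.9 CPM against 36.4 to 43.2 CPM in wild-type. Its log2FoldChange was 0.28 ± 0.078 (FDR 0.0124), the groups overlapped, and its exons overlap other genes. *dpp* (0.03 ± 0.093) and *put* (0.09 ± 0.058) had FDRs above 0.1. In all, 7 members had an FDR below 0.1 at any size, 6 of them lower, where 52.8% of all genes had an FDR below 0.1 and 25.8% were lower by it. The 4 samples did not overlap wild-type for 6 members, against 45.3% of all genes. The median log2FoldChange of the 10 genes was −0.39, against 0.0066 over all genes tested.

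Markers of other cells moved in the same comparison. Their summed levels were lower for 7 ectoderm and trachea markers (150.1 to 159 CPM against 215 to 224 CPM in wild-type, 4 of 7 passing lower), for 6 amnioserosa markers (119.8 to 130.5 CPM against 194 to 204 CPM, 5 of 5 tested passing lower, *zen* at or near 0) and for 6 hemocyte markers (453 to 520.3 CPM against 773 to 823 CPM, 3 of 5 tested passing lower, *He* at or near 0). Myofibril genes, which come on as muscle matures, were higher (3630.0 to 4184 CPM over 11 genes against 2460.5 to 2577 CPM, 6 of 11 passing higher). The 8 mesodermal markers overlapped wild-type (1316 to 1787 CPM against 1370.4 to 1456 CPM), with 0 of 8 passing in edgeR's test or DESeq2. At an unadjusted p below 0.05 edgeR's test gave 5 of 8, against 54.9% of all genes. The part of these shifts, and of the later stage named for the overexpressing embryos, in the pathway values was not tested.

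Genes that Dpp signaling is known to turn on in the embryo or in imaginal discs were counted as a list of 17, of which 16 were tested. Against 33.1% of all genes passing in *CHES-1-like* overexpression (16.5% lower and 16.7% higher), 7 of 16 target genes fell and 1 rose. Those with the largest changes were *Doc3*, *bap* and *pnr*. *Doc3*, a T-box gene of the dorsal ectoderm and heart field, was at 3.18 to 5.34 CPM against 9.68 to 10.9 CPM in wild-type (log2FoldChange −1.17 ± 0.12, FDR 3.83e-06). *bap*, the homeobox gene that specifies visceral mesoderm, was at 3.29 to 4.44 CPM against 7.89 to 9.17 CPM (log2FoldChange −1.10 ± 0.10, FDR 1.35e-06). *pnr*, a GATA factor gene of the dorsal ectoderm and heart field, was at 27.2 to 31.2 CPM against 59.6 to 63.2 CPM (log2FoldChange −1.07 ± 0.062, FDR 1.65e-08). Their groups did not overlap. *Doc1*, *Doc2*, *peb* and *Ance* also fell, by 0.56 to 0.73, and these 4 are on the amnioserosa marker list too. The median over the 16 genes was −0.48. Without replicate 1, 10 of 16 fell and none rose in edgeR's test, where 18% of all genes passed lower. *tin*, the homeobox gene of the heart that needs Dpp in the mesoderm, had a log2FoldChange of −0.43 ± 0.11 in this comparison, under the limit of 0.5.

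**Figure D5:**
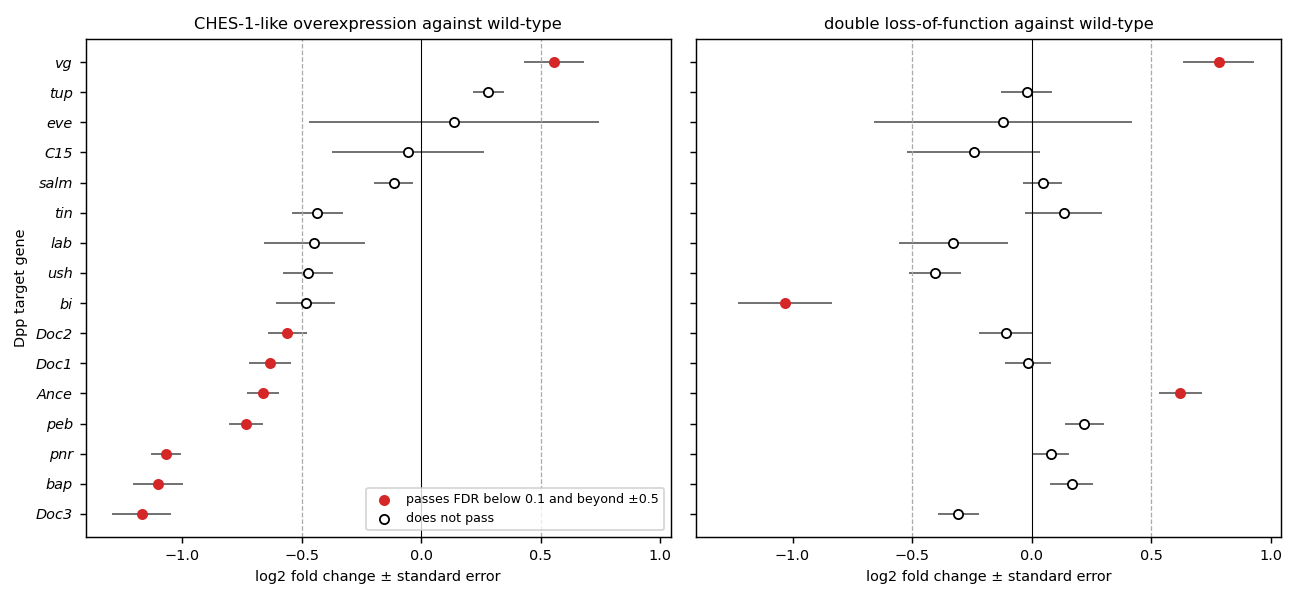
log2FoldChange with its SE for 16 Dpp target genes, in *CHES-1-like* overexpression (left) and the double loss-of-function (right), ordered by the left panel. Filled points pass the FDR and size limits, 7 lower and 1 higher on the left, 1 lower and 2 higher on the right.

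In the other genotypes few target genes passed. In *jumu* loss-of-function, *CHES-1-like* loss-of-function and *jumu* overexpression 0 of 16 passed with edgeR's test or DESeq2, where 19.4%, 15.4% and 15.7% of all genes passed with edgeR's. At an unadjusted p below 0.05 edgeR's test gave 9, 6 and 5 of 16, against 47.3%, 41.9% and 37.4% of all genes. The list's median log2FoldChange was 0.27, −0.057 and −0.056 in these genotypes, against −0.0020, −0.014 and 0.0086 over all genes. In *jumu* loss-of-function it thus lay above that of all genes, also with library totals (0.084 against −0.18). The 9 target genes there with an unadjusted p below 0.05 in edgeR's test were all higher, by 0.23 (*pnr*) to 0.48 (*bap*). Among them *tin* was higher by 0.30 ± 0.074 (FDR 0.00329). With library totals edgeR's test gave 3 of 16 an unadjusted p below 0.05, against 52.6% of all genes. Without replicate 1 of *jumu* overexpression, *bi* fell (16.9% of all genes passed). With library totals 11 of 16 passed lower in *CHES-1-like* loss-of-function, where 51.2% of all genes did, and the list's median was −0.60 against −0.56. In the double loss-of-function 3 of 16 passed, against 24.7% of all genes. There *vg*, which encodes a wing selector protein, rose to 7.53 to 11.8 CPM from 4.84 to 6.01 CPM (log2FoldChange 0.78 ± 0.15, FDR 0.00286). *Ance*, a peptidase gene, rose to 108 to 136 CPM from 80.5 to 87.2 CPM (log2FoldChange 0.62 ± 0.090, FDR 4.43e-04). *bi*, a T-box gene, fell to 2.91 to 6.13 CPM from 7.31 to 8.45 CPM (log2FoldChange −1.03 ± 0.20, FDR 0.00281). Without replicate 2, *vg* and *Ance* rose and *bi*, *lab* and *ush* fell, where 26.4% of all genes passed. The interaction passed for 6 of 16 target genes, with 5 lower (*bi* −1.17, *C15* −1.11, *ush* −0.94, *bap* and *pnr*) and *vg* higher, where 6.23% of all genes passed lower and 6% higher. Without double loss-of-function replicate 2 the same 5 were lower and *vg* and *Ance* higher (8.24% and 8.35% of all genes). These directions are those of TMM scaling. With library totals 10 rose and none fell (78.3% and 1.39% of all genes), the list's median was 0.84 against 1.08 over all genes, and *bap*, *pnr* and *ush* turned to 0.37, 0.42 and 0.10. The genes *ush*, a cofactor gene of *pnr*, and *pnr* have exons that overlap other annotated features.

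A further list of 28 ligands, receptors, Smads and modulators, 27 of them tested, showed which other parts of the signaling system moved. In *CHES-1-like* overexpression 6 rose and 5 fell, where 16.7% of all genes passed higher and 16.5% lower. Without replicate 1, 2 rose (*daw* and *Actbeta*) and 5 fell, where 16.6% passed higher and 18% lower. The activin-type ligand gene *daw* rose from 0.175 to 0.584 CPM in wild-type to 0.764 to 1.27 CPM (log2FoldChange 1.57 ± 0.35, FDR 0.00271). *nej*, which encodes the acetyltransferase CBP, a coactivator of Mad, fell from 283 to 301 CPM to 134 to 169 CPM (log2FoldChange −0.99 ± 0.083, FDR 4.81e-07). *srw*, a relative of *twisted gastrulation*, fell by 1.41 on the log2 scale at 0.0332 to 0.326 CPM, few counts in any sample. In the double loss-of-function 4 rose and 2 fell, where 11.9% of all genes passed higher and 12.8% lower. With library totals 11 rose and none fell (30.1% and 6.74% of all genes), and with totals without rRNA genes 9 rose and none fell (26.3% and 7.41%). Among these *daw* rose by 1.50 ± 0.37, the TGF-beta ligand gene *mav* rose from 42.9 to 49.6 CPM to 70.8 to 131 CPM (0.89 ± 0.18), and *nej* fell to 160 to 222 CPM (−0.69 ± 0.10). Without replicate 2, 3 rose (*Fs*, *daw* and *mav*) and 1 fell (*nej*), where 12.1% of all genes passed higher and 14.3% lower.

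In *jumu* loss-of-function 4 of 27 rose and 0 fell in edgeR's test and DESeq2, where 9.83% of all genes passed higher and 9.54% lower in edgeR's. At an unadjusted p below 0.05 edgeR's test gave 18 of 27, against 47.3% of all genes. With library totals 3 rose and 2 fell (7.51% and 16.5% of all genes), and with totals without rRNA genes 3 rose and 1 fell (7.87% and 14.3%). The follistatin gene *Fs*, whose product binds activins, was at 2.46 to 2.93 CPM against 0 to 0.226 CPM in wild-type (log2FoldChange 3.97 ± 0.27, FDR 1.53e-10). *Snoo*, a Ski/Sno-type corepressor gene of TGF-beta signaling, was at 101 to 147 CPM against 21.7 to 24.6 CPM (log2FoldChange 2.34 ± 0.086, FDR 2.21e-15). *daw* rose by 1.45 ± 0.34. Exons of *Fs* and *Snoo* overlap other annotated features, so their counts are uncertain. *Fs* and *Snoo* were lower in the double loss-of-function (0 to 0.506 CPM and 27.1 to 48.2 CPM) than in *jumu* loss-of-function, and their interactions passed at −3.85 ± 0.70 (FDR 9.74e-04) and −2.44 ± 0.22 (FDR 1.38e-07). In *CHES-1-like* loss-of-function 1 of 27 rose (*Snoo*, 0.61 ± 0.074, and 0.06 with library totals) and 4 fell, with the BMP ligand gene *scw* at −0.89 ± 0.31 (0.300 to 0.615 CPM) and the activin gene *Actbeta* at −0.59 ± 0.23 leading, where 6.24% of all genes passed higher and 9.19% lower. With library totals none rose and 14 fell (2.17% and 51.2% of all genes), and with totals without rRNA genes none rose and 10 fell (2.92% and 29.6%). In *jumu* overexpression *Actbeta* rose by 0.58 ± 0.19, while *scw* (−1.20 ± 0.31) and *tld* (−0.97 ± 0.11), which encodes the protease that frees Dpp from Sog, fell, where 7.99% of all genes passed higher and 7.68% lower. Without replicate 1, *scw* and *tld* fell and none rose in edgeR's test, where 8.46% of all genes passed lower and 8.48% higher. The medians over the 27 genes ran from −0.087 in *CHES-1-like* overexpression to 0.18 in the double loss-of-function, against 0.0066 and 0.016 over all genes. Without double loss-of-function replicate 2 the latter was −0.027, against 0.0055. The other receptor and Smad genes of the list (*wit*, *babo* and *Smox*) passed in none of the 6 comparisons with edgeR's test. That test gave 1 or 2 of the 3 an unadjusted p below 0.05 in each, where 27.5% to 54.9% of all genes had one. DESeq2 passed 1 of them higher in the double loss-of-function.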

How the data were processed

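RNA-seq counts per gene were analysed for 24 samples of sorted mesodermal cells. From stranded libraries of total RNA the authors mapped reads with TopHat2 to the FlyBase r6.05 annotation (stated for 8 of the samples) and deposited 1 table of raw counts, 17476 genes by 24 samples; SAMtools and HTSeq are named in the submitters' processing notes. From these counts, edgeR 4.0.16 in R 4.3.3 (quasi-likelihood test, TMM factors, genes with at least 1 count, Benjamini-Hochberg over all genes) was fitted to the 8 samples of each comparison, or to 16 for the interaction. The least expressed 30% of genes, by average log2 CPM, were left out afterwards. Log2 CPM used a prior count of 2. Standard errors were derived from the F statistics. Tables were summarised in Python 3.11.15 with pandas 2.3.3. Positions, overlaps and exon lengths came from the Ensembl annotation, which holds 17199 of the gene identifiers.

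The 10 genes and all gene lists were chosen with earlier results of these data known. Of the other pathway genes and the target genes, the 3 of each with the largest change among those passing were named in each comparison; further names were added after their values were seen. No 2 replicates agreed within counting noise (lowest chi-square per degree of freedom 6.57). Simulated 2-fold changes were recovered in 66 to 67 of 67 genes in the comparisons with wild-type and in 61 of 67 for the interaction, simulated 1.5-fold changes in 37 to 54 and 16 of 67. The simulation gave all genes the same spread between replicates, held no library that stood apart and changed only genes above 2 CPM. Recovery in the real samples may therefore be lower.

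The alternatives were DESeq2 1.42.0, RLE factors, library totals, totals without rRNA genes, no expression filter, filterByExpr, an FDR below 0.05, a log2 fold change beyond 1, 1 fit of 24 samples, a block for replicate number, and the omission of single samples. Counts at any fold size, and of the lists without single libraries, were added after seeing the data.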

Additional observations from a re-analysis of the deposited data

Results flagged for a closer look

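Of 60 groups of 4 samples (10 genes in 6 genotypes), 8 held a sample whose gap to the others was large for the range of its group, where chance gives about 3. Replicate 2 of the double loss-of-function was that sample for 5 genes. It had a log2 CPM of 5.07 for *dpp* (other replicates 4.06 to 4.19), 6.56 for *gbb* (6.89 to 6.94), 6.34 for *Mad* (6.22 to 6.23), 6.83 for *shn* (6.35 to 6.42) and 6.13 for *brk* (5.37 to 5.39). Replicate 1 of *CHES-1-like* overexpression was that sample for *tkv*, at 6.36 (6.03 to 6.08), and for *brk*, at 5.59 (5.18 to 5.23). Replicate 3 of *jumu* overexpression had 6.93 for *gbb* (6.69 to 6.71).

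With TMM factors, the change of *tkv* on *jumu* loss differed with and without *CHES-1-like*. The interaction was −0.40 on the log2 scale (edgeR, FDR 0.00543), under the size limit for a call. In that scaling all 4 double loss-of-function samples lay below every sample of the other 3 genotypes. With library totals, and with totals without rRNA genes, the interaction turned positive. Mean *tkv* with library totals was 19.1 CPM per kilobase in the double loss-of-function and 13.6 in *CHES-1-like* loss-of-function. It was 19.7 in *jumu* loss-of-function and 21.8 in wild-type.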

How the results depend on the processing

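Of 60 log2FoldChanges (10 genes in 5 comparisons and the interaction), DESeq2, no expression filter and filterByExpr left every call as it was. RLE factors, an FDR below 0.05, 1 fit of 24 samples and the replicate block each lost the call of *dpp* in the double loss-of-function, and a limit of 1 on the log2 scale left 0 genes in the double loss-of-function and 0 in *CHES-1-like* overexpression. The replicate numbers were not taken as pairs, since same-numbered samples deviated with correlations of −0.199 to 0.335 (10 of 20 above 0.1, 7 of 20 best with their own number). Replicate 1 of every genotype but the double loss-of-function did deviate with wild-type replicate 1 (0.252 to 0.335). The replicate block passed 2 instead of 3 genes in the double loss-of-function (*dpp* 0.46, FDR 0.112), turned *shn* there to −0.0011 and left the other counts as they were. The fit of 24 samples turned *Dad* in *jumu* loss-of-function to −0.0092.

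Library totals, and totals without rRNA genes, moved most values. The median of all genes was then −0.18 and −0.14 in *jumu* loss-of-function, −0.56 and −0.38 on *CHES-1-like* loss, 0.34 and 0.29 in the double loss-of-function and 1.08 and 0.81 in the interaction, and rRNA genes held 20.5 to 22.9% of counts in wild-type, 29 to 32.6% on *CHES-1-like* loss and 17.8 to 20.2% in the double loss-of-function. With these totals 7 and 2 genes passed on *CHES-1-like* loss and 10 and 9 in the interaction. Signs turned under both totals for *tkv* (−0.15, −0.11), *shn* (−0.10, −0.059) and *Dad* (−0.17, −0.13) in *jumu* loss-of-function, for *put* (−0.39, −0.21), *sax* (−0.48, −0.30), *Mad* (−0.38, −0.20) and *brk* (−0.51, −0.33) in *CHES-1-like* loss-of-function, for *gbb* (0.28, 0.23), *Med* (0.24, 0.19), *brk* (0.17, 0.13) and *Dad* (0.077, 0.031) in the double loss-of-function, for *Med* (0.062, 0.010) in *jumu* overexpression, for *dpp* (−0.041, −0.033) in *CHES-1-like* overexpression and for *tkv* (0.64, 0.37), *Mad* (1.01, 0.74), *Med* (0.99, 0.73) and *Dad* (0.93, 0.67) in the interaction. Over all genes, calls went from 1887 (763 higher, 1124 lower) to 6535 (266, 6269) and 3973 (357, 3616) on *CHES-1-like* loss, from 1496 (734, 762) to 9755 (9585, 170) and 8231 (8016, 215) in the interaction, from 3024 (1459, 1565) to 4504 (3679, 825) and 4124 (3217, 907) in the double loss-of-function and from 2369 (1202, 1167) to 2933 (919, 2014) and 2717 (963, 1754) in *jumu* loss-of-function. The cause was not tested.

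Leaving out each sample in turn passed 1 to 3 genes in the double loss-of-function, 2 to 4 in *CHES-1-like* overexpression, 0 to 1 in the interaction and 0 in the other comparisons. Signs turned within these fits for *tkv* (−0.0090 to 0.063), *Mad* (−0.026 to 0.033), *Med* (−0.058 to 0.011) and *Dad* (−0.026 to 0.043) in *jumu* loss-of-function, for *gbb* (−0.046 to 0.018), *Med* (−0.039 to 0.033) and *brk* (−0.079 to 0.069) on *CHES-1-like* loss, for *gbb* (−0.074 to 0.035) and *shn* (−0.12 to 0.059) in the double loss-of-function, for *tkv* (−0.085 to 0.097), *Med* (−0.15 to 0.10) and *Dad* (−0.050 to 0.13) in *jumu* overexpression, for *dpp* (−0.077 to 0.077) in *CHES-1-like* overexpression and for *Med* (−0.17 to 0.021), *shn* (−0.082 to 0.082) and *brk* (−0.14 to 0.17) in the interaction. *dpp* passed in the interaction (0.67) without double loss-of-function replicate 3 or 4. Members at an FDR below 0.1 of any size went from 5 to 8 (library totals; 50.5% of all genes) and 2 (24 samples; 29%) in *jumu* loss-of-function, from 4 to 10 (75.7%) and 1 (22.4%) on *CHES-1-like* loss, and from 1 to 10 (81.2%) and 2 (16.6%) in the interaction, where DESeq2 gave 3 (19.8%).

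The least counted gene, *dpp*, had 131 counts or more in every sample. Values near the limit of 0.5 on the log2 scale (*dpp* and *tkv* in the double loss-of-function, *sax*, *brk* and *Dad* in *CHES-1-like* overexpression) lost or gained their call when 1 sample was left out, so these calls are not firm.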

Other observations

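Across the 24 samples some pathway genes kept close company, given here as a description since samples share depth and composition. Pearson's r of log2 CPM was 0.88 for *gbb* and *sax*, 0.85 for *gbb* and *Mad* and 0.89 for *sax* and *Mad*, but over the 20 samples other than *CHES-1-like* overexpression it was 0.41, −0.11 and 0.50. For *shn* and *Dad* it was 0.89 over 24 and 0.81 over 20 samples, and for *tkv* and *Dad* 0.80 and 0.74. Over all genes, those whose log2 CPM was most like that of *Dad* were *robo1*, a receptor gene of axon guidance (0.945), *fs(1)h*, a bromodomain gene (0.914), and *eIF4G2* (0.912). Those most like *brk* were *Nup153*, a nuclear pore gene (0.903), *CG14073* (0.901) and *CG6583* (0.876).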
